A study of Homo sapiens with 6 samples.

Results

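The antiviral interferon-stimulated genes described here are 46 listed symbols whose transcripts are induced by interferons, most of them coding for proteins that act against viruses. They were found by exact symbol, ignoring case, in 3 expression tables that hold 176131 rows in all, 1 table for each cell type. The table of mouse embryonic fibroblasts (MEFs) held 44 of the 46, with OAS1 and OASL unmatched. Each human table held 39, with the mouse genes IFI47, IGTP, IIGP1, IRGM1, OAS1A, OASL1 and OASL2 unmatched. In all, 37 symbols were found in both species.

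The study sequenced RNA from 6 cultures, with 1 library from each. LARP7-/- MEFs were set against wild-type MEFs (LARP7+/+), both prepared from embryos at E13.5 and used at passages 1 to 6. The breast cancer lines MDA-MB-231 and HCC1937 were each treated with siLARP7 and set against the same line treated with siNC, with siRNA at 10 ng/ml in all 4 cultures. LARP7 binds the noncoding RNA 7SK, which restrains the kinase that releases paused RNA polymerase II. The sources used here do not give the part of the gene deleted, the number of embryos, the passage of each MEF culture or the time after siRNA treatment. The labels name human as the organism of the MEF libraries, but the MEF table lists mouse gene IDs. Since each group is 1 library, no difference has a replicate check, an SD or a test, and differences are described by size alone.

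Interferons bind receptors at the cell surface, and the JAK1 and TYK2 kinases then phosphorylate STAT proteins. These join IRF9 in the nucleus, and the complex binds the interferon-stimulated response element in the promoters of target genes. Some target genes are also driven by IRF3 or IRF7 after viral RNA or DNA is sensed in the cell. Fibroblasts and epithelial cells both carry this pathway, keep many of its targets at a low level at rest and raise them on infection.

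The core of that element, searched as GAAANNGAAA on both strands with overlaps allowed, is shown in the human promoters of 5 members. ISG15, BST2 and IFIT3 are shown because they had the largest differences in MEFs. IFIT3, RTP4 and DTX3L are shown because they had the largest differences in HCC1937. Each window runs from 250 bases before the start site to 50 bases after it in RefSeq, build GRCh38.p14, and capitals mark the matches, which run together where they overlap. The window of ISG15 is chr1:1013247-1013546 on the plus strand. The window of BST2 is chr19:17405581-17405880 on the minus strand. IFIT3 has 2 start sites in the table, with windows at chr10:89327747-89328046 and chr10:89332279-89332578 on the plus strand. RTP4 is at chr3:187368135-187368434 on the plus strand, and DTX3L is at chr3:122564088-122564387 on the plus strand.
ISG15: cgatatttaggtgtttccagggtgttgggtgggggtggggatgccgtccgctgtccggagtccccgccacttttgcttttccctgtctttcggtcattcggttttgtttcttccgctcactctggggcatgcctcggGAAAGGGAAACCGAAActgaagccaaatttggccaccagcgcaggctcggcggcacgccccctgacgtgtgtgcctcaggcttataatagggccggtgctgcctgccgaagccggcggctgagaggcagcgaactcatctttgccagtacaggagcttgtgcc
BST2: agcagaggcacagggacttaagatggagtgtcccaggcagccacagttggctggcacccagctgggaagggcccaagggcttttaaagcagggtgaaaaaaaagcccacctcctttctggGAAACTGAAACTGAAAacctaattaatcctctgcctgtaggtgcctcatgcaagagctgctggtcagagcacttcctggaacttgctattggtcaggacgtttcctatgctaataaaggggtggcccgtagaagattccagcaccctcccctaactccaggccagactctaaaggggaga
IFIT3, upstream start: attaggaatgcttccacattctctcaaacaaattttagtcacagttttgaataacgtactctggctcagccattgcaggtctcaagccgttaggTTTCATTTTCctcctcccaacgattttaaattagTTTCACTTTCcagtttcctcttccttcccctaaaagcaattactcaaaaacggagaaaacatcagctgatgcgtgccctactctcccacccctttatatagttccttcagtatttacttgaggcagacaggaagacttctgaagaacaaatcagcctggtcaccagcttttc
IFIT3, downstream start: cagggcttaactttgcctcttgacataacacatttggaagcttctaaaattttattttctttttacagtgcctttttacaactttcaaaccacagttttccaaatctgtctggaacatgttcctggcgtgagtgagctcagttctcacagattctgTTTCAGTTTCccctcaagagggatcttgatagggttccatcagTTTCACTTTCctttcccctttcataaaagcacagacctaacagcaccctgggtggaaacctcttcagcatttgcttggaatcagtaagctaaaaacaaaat
RTP4: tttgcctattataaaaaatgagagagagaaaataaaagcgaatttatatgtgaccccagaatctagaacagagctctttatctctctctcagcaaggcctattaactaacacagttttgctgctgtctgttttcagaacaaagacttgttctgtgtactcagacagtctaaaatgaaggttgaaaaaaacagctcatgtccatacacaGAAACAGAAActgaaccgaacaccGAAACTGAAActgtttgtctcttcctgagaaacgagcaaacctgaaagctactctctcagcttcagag
DTX3L: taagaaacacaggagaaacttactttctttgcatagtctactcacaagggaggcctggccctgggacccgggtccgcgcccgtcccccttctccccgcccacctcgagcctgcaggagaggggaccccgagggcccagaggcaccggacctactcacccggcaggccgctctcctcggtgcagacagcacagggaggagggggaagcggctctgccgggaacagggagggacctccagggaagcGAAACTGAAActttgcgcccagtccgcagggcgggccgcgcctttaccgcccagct
The matches of ISG15 begin 113 and 107 bases before the start site and those of BST2 130 and 124 bases before it. IFIT3 had matches 156 and 122 bases before its upstream start and 94 and 51 bases before its downstream start, all on the opposite strand. Those of RTP4 begin 42 and 18 bases before the start site. The single match of DTX3L begins 6 bases before its start site and runs across it. It is also the match in a window of PARP9, which is transcribed from the other strand with a start site 38 bases away, so that the windows share 137 bases. Of the 39 human members, 32 had a promoter window in the table used, and 21 of these 32 held a match. The motif was present in 3.57% of all 35116 windows and in the windows of 4.38% of 27305 gene symbols. GBP2, IFIT2, IFITM2, MX2, OAS2, OASL and USP18 had no entry, and mouse promoters were not used here. A match is a description of these letters and not a site shown to be bound.

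LARP7 itself was lower in every depleted library. Larp7 was at 5.72 RPKM (reads scaled to gene length and library size) in LARP7-/- MEFs and 15.2 RPKM in wild-type MEFs. In MDA-MB-231 it was at 4.51 RPKM with siLARP7 and 8.65 RPKM with siNC, and in HCC1937 at 2.89 RPKM with siLARP7 and 5.62 RPKM with siNC. The depleted level was therefore 37.6%, 52.2% and 51.4% of the control level in the 3 pairs. Depth, recovered from the steps between low RPKM values, was about 36.9 M to 53.3 M reads per library (M for mega), so that 1 read in 1 kb was worth 0.0188 to 0.0271 RPKM. All 10 fibroblast markers listed were at 1 RPKM or more in MEFs. Of 7 epithelial markers, all were at 1 RPKM or more in HCC1937 and 4 were in MDA-MB-231, where KRT5 and KRT14 were listed at 0. The lists did not separate the cells fully. In MEFs 2 epithelial markers reached 1 RPKM, with Krt19 at 15.4 RPKM in LARP7-/- and 16.1 RPKM in wild-type MEFs. Of the fibroblast markers, 4 reached it in MDA-MB-231 and 2 in HCC1937. VIM was at 199 RPKM with siLARP7 and 149 RPKM with siNC in MDA-MB-231.

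In LARP7-/- MEFs the antiviral genes stood above wild-type as a group. All 44 members found had a higher RPKM in the LARP7-/- library, where 54% of the 26106 genes with any signal did. Isg15, Bst2 and Ifit3 had the largest ratios on the scale used below, at 10.5-fold to 14.5-fold in RPKM. Differences are given from here on as the log2 ratio of depleted to control on RPKM + 1, which understates the change of genes at a low level. A gene entered the comparison when either library of the pair reached 1 RPKM, and was called at a ratio of 2-fold or more. Of the 44 members, 29 were called higher and none lower. Across the table, 2.4% of the 14479 genes compared were called higher and 0.884% lower. The members were chosen with earlier results of these data known, so setting them beside these shares is not a test. In bulk RNA, more cells that express a gene and more RNA per cell cannot be told apart.

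**Figure D1:**
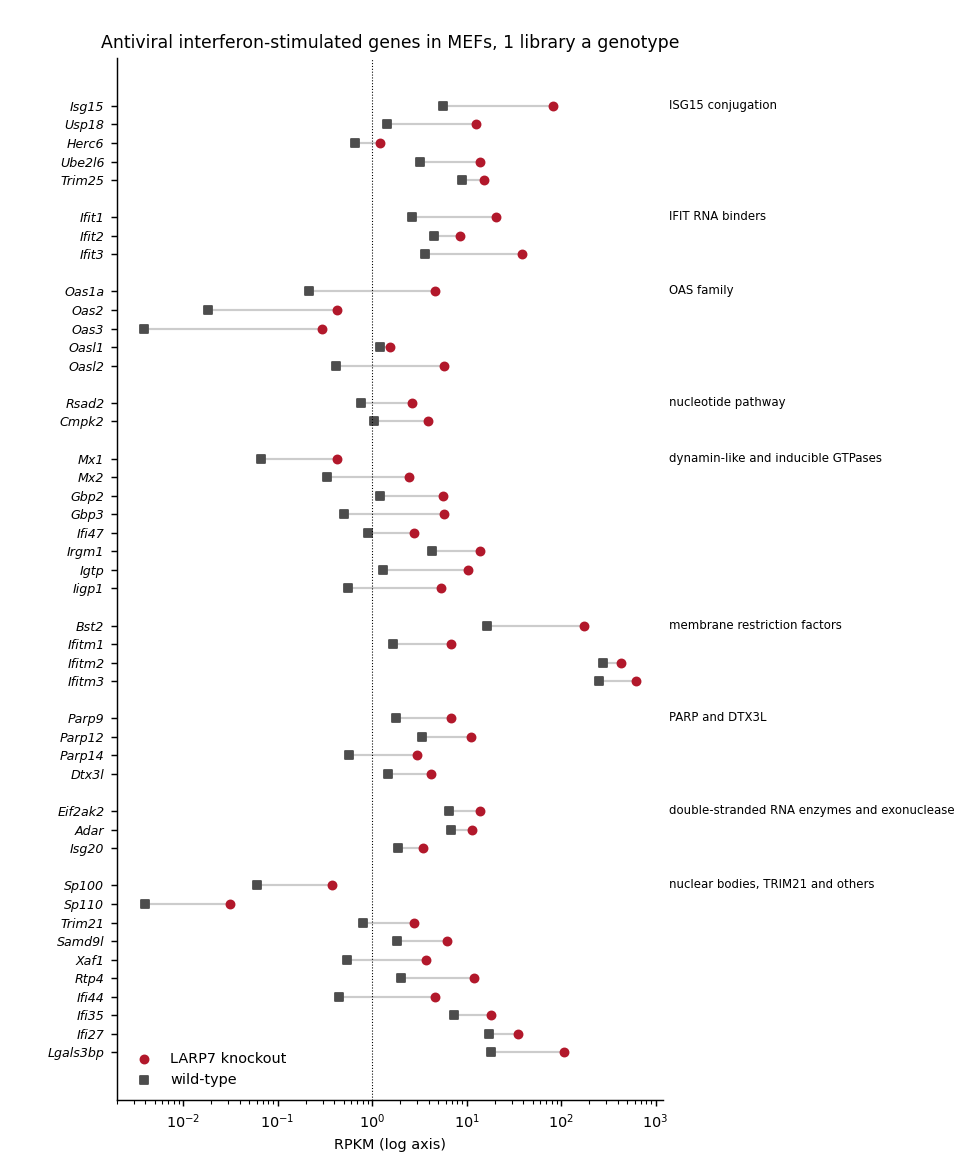
RPKM on a log axis of the 44 members found in MEFs, ordered by role, with circles for the LARP7-/- library and squares for the wild-type library. Each circle lies to the right of its square, and the dotted line marks 1 RPKM.

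Of the 44 members, 5 did not reach 1 RPKM in either library, and 12 reached it only in the LARP7-/- library and so had to be higher there. These 12 were Herc6, Oas1a, Oasl2, Rsad2, Mx2, Gbp3, Ifi47, Iigp1, Parp14, Trim21, Xaf1 and Ifi44. The counts by role below include them, and 2.4% of all genes compared were called higher. Among the 27 members at 1 RPKM or more in wild-type MEFs, 19 were called higher. Of the 13689 genes of the table with that wild-type level, 1.59% were called higher. All 27 members had a ratio above 0, as did 50% of the wider set of 14479 genes at 1 RPKM in either library. With no level minimum, 29 of the 44 members and 1.33% of 26106 genes were called. These are the same members and the same 348 genes as with the minimum. A gene under 1 RPKM in both libraries cannot reach 2-fold on RPKM + 1, so this setting could not change the calls. The median log2 ratio was 1.47 over the 39 members compared and 0.00 over all genes compared. Members made up 8 of the 20 genes with the largest ratios in the table, 14 of the first 50 and 17 of the first 100. The ranking holds 14479 genes, of which 39 are members. Among the first 100, Oasl2, Oas1a, Gbp3, Iigp1, Ifi44 and Xaf1 entered only through the LARP7-/- library. The authors' deposited table holds changes from the GFOLD program, which shrinks them towards 0. In it, 34 of the 44 members had a log2 change of 1 or more, as did 1.06% of all 49089 rows. Only 14479 of the 49089 rows reached 1 RPKM in either library, so that share is not over a set like the members.

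**Figure D2:**
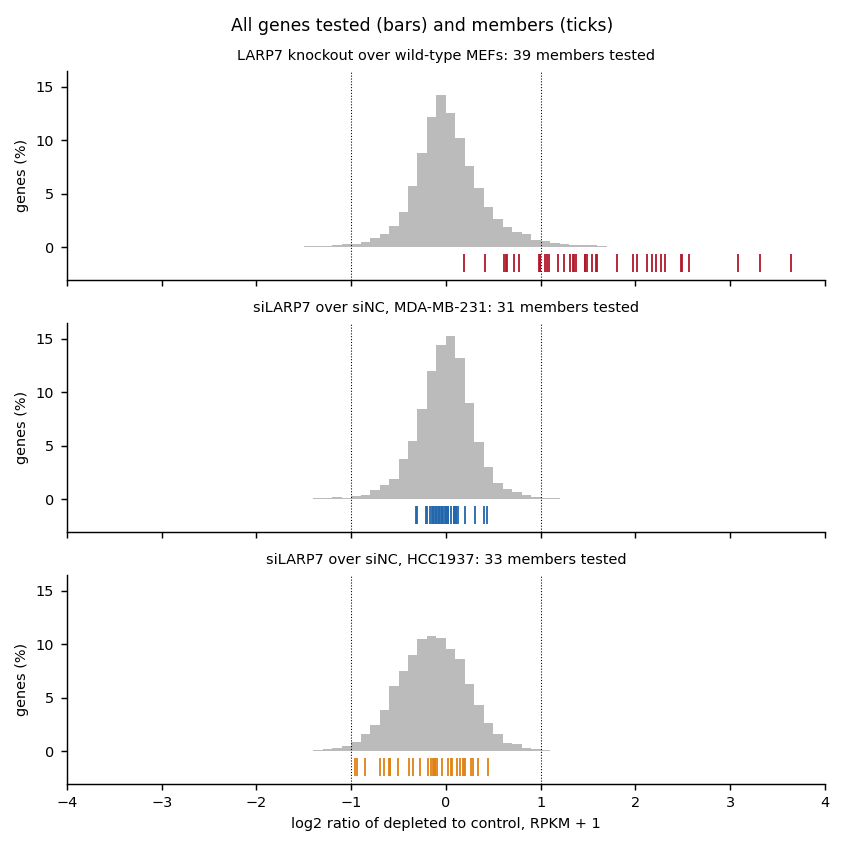
Distribution of the log2 ratio of depleted to control over all genes compared (grey bars, percent of genes in bins of 0.1) and the members compared (ticks) in MEFs, MDA-MB-231 and HCC1937, with dotted lines at the 2-fold limits. In MEFs every tick lies above 0, and in both human lines every tick lies between the limits.

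ISG15 is a ubiquitin-like protein that is attached to newly made viral and host proteins, and it held the largest ratio of any gene in the MEF table. Isg15 was at 82.6 RPKM in LARP7-/- MEFs and 5.70 RPKM in wild-type MEFs (log2 ratio 3.64). Its E2 conjugating enzyme Ube2l6 was at 13.8 RPKM in LARP7-/- MEFs and 3.25 RPKM in wild-type MEFs (1.80). The protease that removes ISG15, Usp18, which also blocks the interferon receptor, was at 12.7 RPKM in LARP7-/- and 1.46 RPKM in wild-type MEFs (2.48). Modifier, conjugating enzyme and protease were thus all called higher. The ligase Trim25, which also modifies the RNA sensor RIG-I, was at 15.4 RPKM in LARP7-/- MEFs against 8.95 RPKM in wild-type MEFs (0.72). Herc6, the main ISG15 ligase in mice, was at 1.21 RPKM in LARP7-/- against 0.659 RPKM in wild-type MEFs (0.41), and neither ligase was called.

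IFIT proteins bind viral RNA that lacks the cap marks of host RNA, and 2 of the 3 members were called higher. Ifit3 was at 38.2 RPKM in LARP7-/- MEFs and 3.62 RPKM in wild-type MEFs (3.09). Ifit1 was at 20.6 RPKM in LARP7-/- and 2.63 RPKM in wild-type MEFs (2.57). Ifit2 was at 8.48 RPKM in LARP7-/- MEFs and 4.55 RPKM in wild-type MEFs (0.77) and was not called, although it had the highest wild-type level of the family.

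OAS enzymes make 2'-5' oligoadenylates from ATP when they bind double-stranded RNA, and these activate RNase L. Oas1a was at 4.66 RPKM in LARP7-/- MEFs and 0.216 RPKM in wild-type MEFs (2.22). Oasl2, a mouse relative with a ubiquitin-like tail, was at 5.82 RPKM in LARP7-/- and 0.413 RPKM in wild-type MEFs (2.27). Oasl1, which in mice holds back translation of Irf7, was at 1.55 RPKM in LARP7-/- MEFs against 1.23 RPKM in wild-type MEFs, the smallest ratio of all members compared (0.20). Oas2 was at 0.427 RPKM in LARP7-/- MEFs and 0.0183 RPKM in wild-type MEFs, and Oas3 at 0.296 RPKM in LARP7-/- and 0.00384 RPKM in wild-type MEFs. Both stayed under 1 RPKM, and their wild-type values are worth under 1 read per kb, so no fold is given. The family was thus split between a pair of called genes, 1 gene near its wild-type level and a pair too low to compare. The called pair, Oas1a and Oasl2, entered the comparison only through the LARP7-/- library.

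The neighbouring genes Rsad2 and Cmpk2 supply an antiviral nucleotide: CMPK2 helps make CTP, and RSAD2 (viperin) turns CTP into a chain terminator for viral polymerases. Rsad2 was at 2.65 RPKM in LARP7-/- MEFs and 0.77 RPKM in wild-type MEFs (1.04). Cmpk2 was at 3.90 RPKM in LARP7-/- MEFs and 1.06 RPKM in wild-type MEFs (1.25). Both were called. In the human promoter table the genes lie on opposite strands, with 2 start sites listed for RSAD2 and 3 for CMPK2. The first RSAD2 start is 66 and 22 bases from 2 of the CMPK2 starts, and the windows of the remaining starts do not overlap those of the other gene.

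Among the dynamin-like and inducible GTPases, which attack viral capsids or the vacuoles of intracellular pathogens, 6 of the 7 members compared were called higher. Of all genes compared, 2.4% were. Mx2, Gbp3, Iigp1 and Ifi47 entered only through the LARP7-/- library and so had to be higher there. Igtp was at 10.5 RPKM in LARP7-/- MEFs and 1.31 RPKM in wild-type MEFs (2.31). Irgm1 was at 13.8 RPKM in LARP7-/- and 4.35 RPKM in wild-type MEFs (1.47). Iigp1 was at 5.31 RPKM in LARP7-/- MEFs and 0.556 RPKM in wild-type MEFs (2.02). These 3 belong to the immunity-related GTPases of mice, which the human tables do not pair by symbol. Of the guanylate-binding proteins, Gbp3 was at 5.82 RPKM in LARP7-/- MEFs and 0.506 RPKM in wild-type MEFs (2.18). Gbp2 was at 5.61 RPKM in LARP7-/- and 1.21 RPKM in wild-type MEFs (1.58). The Mx proteins form rings around viral capsids. Mx2 was at 2.44 RPKM in LARP7-/- MEFs and 0.33 RPKM in wild-type MEFs (1.37), while Mx1 was under 1 RPKM in both, at 0.426 RPKM in LARP7-/- MEFs and 0.0669 RPKM in wild-type MEFs, the second worth under 3 reads per kb. Ifi47, at 2.80 RPKM in LARP7-/- MEFs and 0.913 RPKM in wild-type MEFs, was just short of the call (0.99).

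The membrane factors gave most of the antiviral RNA by level. Bst2, or tetherin, which holds budding virus particles at the cell surface, was at 173 RPKM in LARP7-/- MEFs and 16.6 RPKM in wild-type MEFs (3.31). The IFITM proteins block fusion of enveloped viruses with endosomes. Ifitm3 was at 623 RPKM in LARP7-/- MEFs and 250 RPKM in wild-type MEFs (1.31). Ifitm1 was at 6.83 RPKM in LARP7-/- and 1.69 RPKM in wild-type MEFs (1.54). Ifitm2 was at 429 RPKM in LARP7-/- MEFs against 280 RPKM in wild-type MEFs (0.61), not called. The IFITM genes already stood highest in wild-type cells, apart from Ifitm1. Summed over all 44 members, the level was 1736 RPKM in LARP7-/- MEFs and 663 RPKM in wild-type MEFs, or 0.437% and 0.169% of all RPKM in those libraries. Without the 3 IFITM genes the sums were 676 RPKM in LARP7-/- MEFs and 131 RPKM in wild-type MEFs. At 10 RPKM or more were 18 members in LARP7-/- MEFs and 5 in wild-type MEFs.

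All 4 genes of the PARP and DTX3L group, which attach ADP-ribose or ubiquitin to proteins, were called higher within a narrow range, from 1.06 to 1.49. Parp9 was at 6.83 RPKM in LARP7-/- MEFs and 1.79 RPKM in wild-type MEFs (1.49). Its ubiquitin ligase partner Dtx3l was at 4.17 RPKM in LARP7-/- MEFs and 1.47 RPKM in wild-type MEFs (1.06). Parp12, which binds RNA through zinc fingers, was at 11.1 RPKM in LARP7-/- and 3.37 RPKM in wild-type MEFs (1.47). The last of the 4 was the lowest in both libraries and entered the comparison only through the LARP7-/- library. Parp14, which binds ADP-ribose through macrodomains, was at 2.98 RPKM in LARP7-/- and 0.571 RPKM in wild-type MEFs (1.34).

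None of the 3 enzymes that act on double-stranded or viral RNA was called, though each was above 0. Eif2ak2 (PKR), the kinase that stops translation on binding double-stranded RNA, was at 13.8 RPKM in LARP7-/- MEFs and 6.45 RPKM in wild-type MEFs (0.99). Adar, which edits adenosine to inosine in double-stranded RNA, was at 11.4 RPKM in LARP7-/- MEFs and 6.88 RPKM in wild-type MEFs (0.65). The exonuclease Isg20 was at 3.46 RPKM in LARP7-/- MEFs and 1.88 RPKM in wild-type MEFs (0.63). Eif2ak2 lay at the limit, and it passed it under each of the other scalings tried.

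The other 10 members have varied roles, and 7 of the 8 compared were called higher. Of these, Ifi44, Xaf1 and Trim21 entered only through the LARP7-/- library and so had to be higher there. Lgals3bp, a secreted glycoprotein that binds galectins, was at 107 RPKM in LARP7-/- MEFs and 18.2 RPKM in wild-type MEFs (2.49). Rtp4, a chaperone of membrane receptors that also limits RNA viruses, was at 12.1 RPKM in LARP7-/- MEFs and 2.01 RPKM in wild-type MEFs (2.13). Ifi44, a negative regulator of virus-induced signalling, was at 4.67 RPKM in LARP7-/- MEFs and 0.442 RPKM in wild-type MEFs (1.97). Levels thus differed widely among genes with similar ratios. Xaf1, which antagonises the apoptosis inhibitor XIAP, was at 3.69 RPKM in LARP7-/- MEFs and 0.549 RPKM in wild-type MEFs (1.60). Samd9l, which restrains translation and cell growth, was at 6.25 RPKM in LARP7-/- and 1.84 RPKM in wild-type MEFs (1.35). Ifi35, a partner of NMI, was at 18.1 RPKM in LARP7-/- and 7.38 RPKM in wild-type MEFs (1.19). These 3 were called at wild-type levels from 0.549 to 7.38 RPKM. Trim21, the cytosolic antibody receptor, was at 2.81 RPKM in LARP7-/- MEFs and 0.796 RPKM in wild-type MEFs (1.09). Ifi27, a small mitochondrial protein, was at 34.9 RPKM in LARP7-/- MEFs and 17.1 RPKM in wild-type MEFs and was not called (0.99). The nuclear body proteins Sp100 and Sp110 were under 1 RPKM in both libraries, with Sp100 at 0.376 RPKM in LARP7-/- MEFs and 0.061 RPKM in wild-type MEFs, the second again worth under 3 reads per kb.

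Some members have near-identical neighbours that could share or lose reads in counting: IFIT3, OAS1A, OASL2, the 3 IFITM genes, GBP2, GBP3, MX1, MX2 and IIGP1. Values of single genes among these are uncertain. Without them, 20 of the 29 members compared in MEFs were called higher, with a median of 1.34.

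Above and beside the members, the rest of the pathway differed in part in MEFs. All 10 interferon ligand genes found were listed at 0 in both MEF libraries, at depths where 3 reads in 1 kb come to 0.0804 RPKM in LARP7-/- and 0.0813 RPKM in wild-type MEFs. None of the 5 interferon receptor genes compared was called, with ratios from 0.13 to 0.62 and a median of 0.37. Of the 11 JAK, STAT and IRF genes compared, 2 were called higher. Irf7, the transcription factor that amplifies interferon production, was at 11.8 RPKM in LARP7-/- MEFs and 1.53 RPKM in wild-type MEFs (2.34). Stat2, which carries the complex's activation domain, was at 21.2 RPKM in LARP7-/- and 5.60 RPKM in wild-type MEFs (1.75). Irf9, its DNA-binding partner, was at 8.79 RPKM in LARP7-/- MEFs and 4.26 RPKM in wild-type MEFs, short of the call (0.90). Jak1, Stat3 and Irf3 lay between 0.06 and 0.17. The genes called here are themselves known targets of interferon.

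Of the 14 nucleic acid sensors and adaptors compared in MEFs, 5 were called higher: Ddx58 (RIG-I, 1.24), Ifih1 (MDA5, 1.01), Dhx58 (LGP2, 1.44), Zbp1 (1.64) and the kinase Ikbke (1.30). Of the 11 class I presentation genes compared, 5 were called higher, namely the immunoproteasome subunit Psmb8 (1.54), the peptide transporters Tap1 (1.35) and Tap2 (1.57), Tapbp (1.08) and the transactivator Nlrc5 (1.21). B2m, the light chain of class I molecules, was at 629.7 RPKM in LARP7-/- MEFs and 326 RPKM in wild-type MEFs (0.95). The chemokine Cxcl10 was called (1.48), 1 of 2 chemokines compared, and 3 of 15 other interferon-stimulated genes were, namely Helz2 (1.02), Parp10 (1.53) and Rnf213 (1.32). None of the 4 inhibitors compared (Socs1, Socs3, Pias1 and Ptpn11) was called. Of all genes compared in MEFs, 2.4% were called higher. Ifih1, Dhx58, Zbp1, Psmb8, Nlrc5 and Parp10 were at 0.207 to 0.881 RPKM in wild-type MEFs. They entered the comparison only through the LARP7-/- library and so had to be higher there. No gene of these 8 lists was called lower. The members had a higher median in MEFs (1.47) than any of these lists, the nearest being 1.23 over 2 chemokines. Members and lists were chosen with earlier results of these data known, so this order is not a test.

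**Figure D3:**
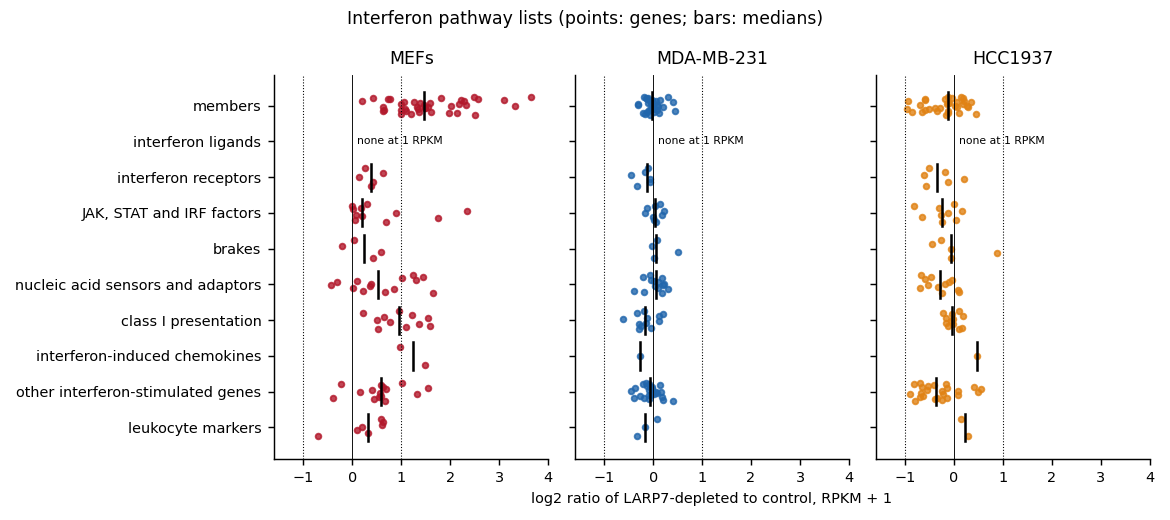
Log2 ratio of depleted to control on RPKM + 1 for the members, the 8 pathway lists and the leukocyte markers in MEFs, MDA-MB-231 and HCC1937, with a point for each gene compared and a bar at the median. The members reach 3.64 in MEFs with a median of 1.47, and their medians are -0.03 in MDA-MB-231 and -0.12 in HCC1937.

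Leukocytes express many of these genes, so their markers were read beside the members. Of 15 leukocyte markers found, 7 were compared and none was called, with 6 of the 7 above 0. The 15 markers summed to 51.3 RPKM in LARP7-/- MEFs and 39.5 RPKM in wild-type MEFs. Ptprc, the pan-leukocyte antigen CD45, was at 0.0293 RPKM in LARP7-/- MEFs and 0.037 RPKM in wild-type MEFs. Cd3e and Siglech were listed at 0 in both. Other markers were expressed: Lyz2 was at 28.3 RPKM in LARP7-/- MEFs and 22.4 RPKM in wild-type MEFs (0.32). Cd14 was at 9.77 RPKM in LARP7-/- and 6.00 RPKM in wild-type MEFs (0.62). Cd68 (0.60), Adgre1 (0.59), Csf1r (0.20) and Fcer1g (0.09) were also above 0, and Tyrobp was below it (-0.70). Of the fibroblast markers, the matrix proteoglycans Dcn (2.40) and Lum (1.76) were called higher and the others were not. The part of leukocyte or fibroblast markers in the members' difference was not tested.

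In MDA-MB-231 the same genes lay near their siNC level after siLARP7. Of the 39 members found, 31 were compared and none was called in either direction, where 0.501% of 17575 genes were called higher and 0.74% lower. Ratios ran from -0.32 to 0.44, 14 above 0 and 17 below (50.2% of all genes were above), with a median of -0.03 against 0.00 over all genes compared. On the RPKM + 1 scale none of the 31 differed by 1.5-fold or more in either direction, where 2.88% of genes were higher and 4.03% lower by that much.

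The members with the widest differences in MDA-MB-231 pointed both ways. TRIM21 was at 4.09 RPKM with siLARP7 and 2.76 RPKM with siNC (0.44). OASL was at 1.83 RPKM with siLARP7 and 1.15 RPKM with siNC (0.40), the only member compared that passed 1.5-fold in RPKM itself, at 1.59-fold. ISG15 was at 75.9 RPKM with siLARP7 and 61.2 RPKM with siNC (0.31). On the lower side, BST2 was at 196 RPKM with siLARP7 and 246 RPKM with siNC (-0.32). IFITM1 was at 21.3 RPKM with siLARP7 and 26.5 RPKM with siNC (-0.30). The IFIT genes kept close to the siNC level. IFIT1 was at 5.29 RPKM with siLARP7 and 5.85 RPKM with siNC (-0.12). IFIT2 was at 5.83 RPKM with siLARP7 and 5.24 RPKM with siNC (0.13). IFIT3 was at 17.2 RPKM with siLARP7 and 17.6 RPKM with siNC (-0.03). From approximate read numbers, the exact 95% Clopper-Pearson interval of the siLARP7 level was 92.2% to 103% of the siNC level for IFIT3, 118% to 130% for ISG15 and 78.1% to 82% for BST2. These intervals cover counting error only, since PCR copies are not independent molecules and no second culture was sequenced. Members under 1 RPKM in both libraries were HERC6, OAS1, RSAD2, CMPK2, MX2, ISG20, SP110 and RTP4, and CMPK2 was listed at 0 in both.

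In HCC1937 no member was called either, but a subset was lower. Of 39 members found, 33 were compared, where 0.399% of 15797 genes were called higher and 1.23% lower. Ratios ran from -0.96 to 0.44, 12 above 0 and 21 below, with a median of -0.12. Of all genes compared, 35.6% were above 0. The median over all genes compared was -0.14, so the pair as a whole was shifted by about as much. At 1.5-fold or more, 8 of the 33 members and 10.8% of all genes were lower, and no member and 2.75% of genes were higher. With the libraries scaled to a median ratio of 1, 3 of 33 members and 6.49% of genes were lower by 1.5-fold.

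DTX3L, IFIT3 and RTP4 lay lowest in HCC1937, each just short of the call. DTX3L was at 2.95 RPKM with siLARP7 and 6.67 RPKM with siNC (-0.96), with 1.52% of all genes at or below its ratio. IFIT3 was at 1.23 RPKM with siLARP7 and 3.27 RPKM with siNC (-0.93). RTP4 was at 1.84 RPKM with siLARP7 and 4.15 RPKM with siNC (-0.86). These 3 are also the members past 2-fold with a pseudocount of 0.1, at -1.15, -1.34 and -1.13, where 5.72% of all genes compared were lower by that much. By the authors' own measure only 2 of the 3 pass. In the authors' deposited table, DTX3L and IFIT3 had log2 changes of -1.04 and -1.10, the only members at -1 or less. Of all 63521 rows, 0.838% were at -1 or less. Only 15797 of the 63521 rows reached 1 RPKM in either library, so that share is not over a set like the members. The siLARP7 level was 44.2% of the siNC level for DTX3L, with an exact 95% interval of 40.8% to 47.9% from counting error alone. For IFIT3 it was 37.7% (31.3% to 45.3%), and for RTP4 44.4% (36.3% to 54.2%).

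The remaining 5 of the 8 lower members were GBP3, TRIM21, EIF2AK2, IFIT1 and IFIT2. GBP3 was at 4.32 RPKM with siLARP7 and 7.63 RPKM with siNC (-0.70). TRIM21 was at 1.43 RPKM with siLARP7 and 2.81 RPKM with siNC (-0.65). EIF2AK2 was at 5.57 RPKM with siLARP7 and 8.93 RPKM with siNC (-0.60). The IFIT genes that bind RNA beside IFIT3 were lower by nearly the same ratio. IFIT1 was at 2.72 RPKM with siLARP7 and 4.59 RPKM with siNC (-0.59). IFIT2 was at 2.12 RPKM with siLARP7 and 3.70 RPKM with siNC (-0.59). All 3 IFIT genes and all 4 genes of the PARP and DTX3L group were below 0, as were most genes of the pair. Of all genes compared, only 35.6% were above 0, and their median was -0.14. PARP14 was at 2.26 RPKM with siLARP7 and 3.62 RPKM with siNC (-0.50). PARP9 was at 1.12 RPKM with siLARP7 and 1.78 RPKM with siNC (-0.39). PARP12 was at 1.81 RPKM with siLARP7 and 2.40 RPKM with siNC (-0.28).

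The membrane factors and OAS genes of HCC1937 lay on the other side. BST2 was at 340.9 RPKM with siLARP7 and 284 RPKM with siNC (0.27). IFITM3 was at 113 RPKM with siLARP7 and 92.5 RPKM with siNC (0.28). All 4 membrane factors were above 0. After the fit on transcript length, level and GC content described next was taken out, all 4 were below 0, between -0.23 and -0.10, around the median of -0.15 over all genes in that fit. Of the 4 OAS genes, 3 were above 0 in both cases. OAS3 was at 9.02 RPKM with siLARP7 and 6.92 RPKM with siNC (0.34). IFI27 had the highest ratio, at 33.5 RPKM with siLARP7 and 24.4 RPKM with siNC (0.44). The ISG15 modifier and its enzymes lay close to the siNC level. ISG15 was at 106 RPKM with siLARP7 and 95.3 RPKM with siNC (0.15). UBE2L6 was at 63.3 RPKM with siLARP7 and 55.4 RPKM with siNC (0.19). USP18 was at 5.15 RPKM with siLARP7 and 5.67 RPKM with siNC (-0.12). Members under 1 RPKM in both libraries were RSAD2, CMPK2, ISG20, SP110, SAMD9L and XAF1.

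In HCC1937 the ratio of all genes moved with base composition, and the members moved with it. Over 11962 protein-coding genes, Spearman's rho between the log2 ratio and the GC content of the longest transcript was 0.57, and over the 33 members it was 0.59. These points share the same library pair, and genes are not independent replicates. DTX3L, IFIT3 and RTP4 have between 44.2% and 44.9% GC, ISG15 has 63.4% and BST2 57.3%. After a fitted trend on base composition, transcript length and level was taken out, the coefficient over members was 0.10, and 4 of the 33 members and 6% of genes were lower by 1.5-fold or more. DTX3L was then at -0.76, IFIT3 at -0.75, RTP4 at -0.71 and TRIM21 at -0.61. The step keeps the shift between the libraries, and the median over all genes was then -0.15. BST2 turned to -0.16 and IFITM3 to -0.10, close to that median, and ISG15 to -0.38, below it. With the libraries scaled to a median ratio of 1 instead, BST2 was at 0.40, IFITM3 at 0.42 and ISG15 at 0.28, so the sign of these 3 depends on the processing. OAS3 (0.32) and IFI27 (0.36) stayed above 0 with the trend removed. In MDA-MB-231 the coefficient was 0.36 over coding genes and -0.09 over the members.

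**Figure D4:**
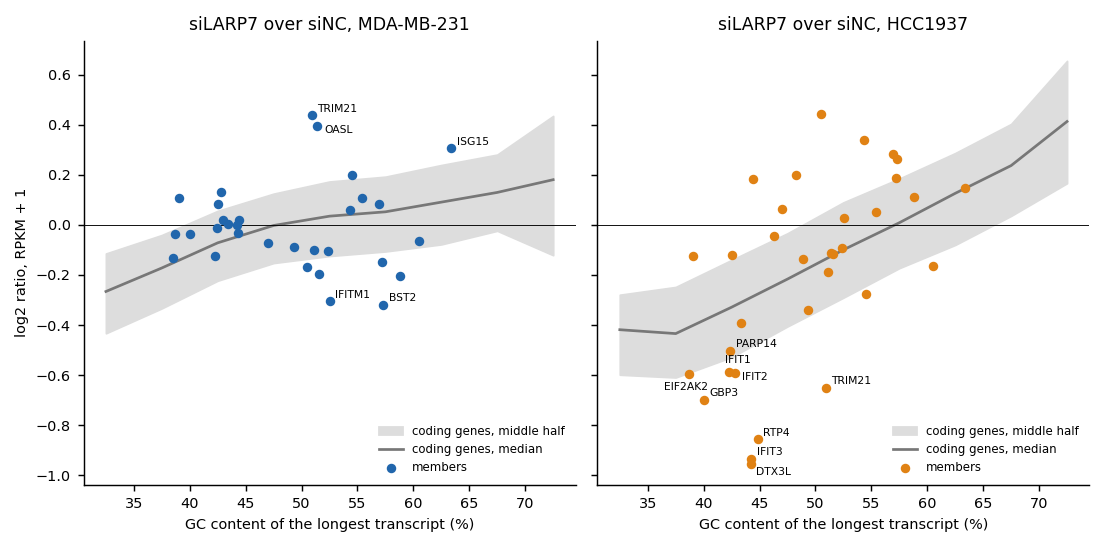
Log2 ratio of siLARP7 to siNC on RPKM + 1 against GC content of the longest transcript for the members compared in MDA-MB-231 and HCC1937 (points), over the median (line) and the middle 50% (band) of protein-coding genes in bins of 5% GC. Members below the band in HCC1937 include DTX3L, IFIT3, RTP4, TRIM21, GBP3, IFIT1 and IFIT2, and ISG15 lies within it.

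On RPKM + 1 the rest of the pathway gave no call in the human lines. None of the genes compared in the 8 lists was called in either line. In RPKM itself some passed 2-fold in HCC1937. Of the 69 genes compared, SAMD9 (19.1% of the siNC level), DDX58 (34.3%), TNFSF10 (42.4%), IFIT5 (44.9%) and ZNFX1 (49.4%) were lower. Of all genes, 6.82% were, a share close to that of the lists. All but ZNFX1 reached 1 RPKM only with siNC and so had to be lower with siLARP7. SOCS1 was higher (315%), but it reached 1 RPKM only with siLARP7 and so had to be higher there. STAT2 was at 13.6 RPKM with siLARP7 and 13.7 RPKM with siNC in MDA-MB-231 (-0.01), and at 2.86 RPKM with siLARP7 and 5.06 RPKM with siNC in HCC1937 (-0.65). In HCC1937, ratios of the 69 genes compared in these lists ran from -0.90 to 0.88. The lowest was SAMD9, a relative of SAMD9L, at 0.257 RPKM with siLARP7 and 1.35 RPKM with siNC (-0.90). The highest was SOCS1, an inhibitor of JAK kinases, at 2.03 RPKM with siLARP7 and 0.645 RPKM with siNC (0.88). The 12 sensors and adaptors compared in HCC1937 had a median of -0.29, against -0.14 over all genes compared, and DDX58 was at 0.442 RPKM with siLARP7 and 1.29 RPKM with siNC (-0.67). IRF7 was at 7.06 RPKM with siLARP7 and 5.87 RPKM with siNC in MDA-MB-231 (0.23) and under 1 RPKM in HCC1937.

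Promoter matches did not go with 1 direction. Among members with a window, those holding the motif had a median of -0.02 (18 genes) and those without it -0.10 (7 genes) in MDA-MB-231. In HCC1937 the medians were -0.28 for 19 genes with it and -0.05 for 7 genes without it. In MEFs, by the match in the human promoter, they were 1.49 for 19 genes with it and 1.22 for 8 genes without it. Genes without a match, such as Ube2l6 and Xaf1, were also called higher in MEFs.

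Set side by side, the 3 comparisons gave the same members different ratios. Of the 29 members called higher in MEFs, 24 were found in the human tables and 20 were compared in each line. Their median was -0.02 in MDA-MB-231, with 9 above 0 and 11 below, and -0.15 in HCC1937, with 7 above 0 and 13 below. The other members compared had medians of -0.04 (11 genes) and -0.09 (13 genes) in those lines. A difference between cell types was not tested, since each has 1 library a group and species, means of depletion and culture differ as well. The control levels also differed: BST2 was at 16.6 RPKM in wild-type MEFs, 246 RPKM in siNC MDA-MB-231 and 284 RPKM in siNC HCC1937, and ISG15 at 5.70, 61.2 and 95.3 RPKM in those 3 controls. Under 1 RPKM were 17 of 44 members in wild-type MEFs, 8 of 39 in siNC MDA-MB-231 and 6 of 39 in siNC HCC1937. The tables were normalized separately, so levels across them are only set side by side.

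**Figure D5:**
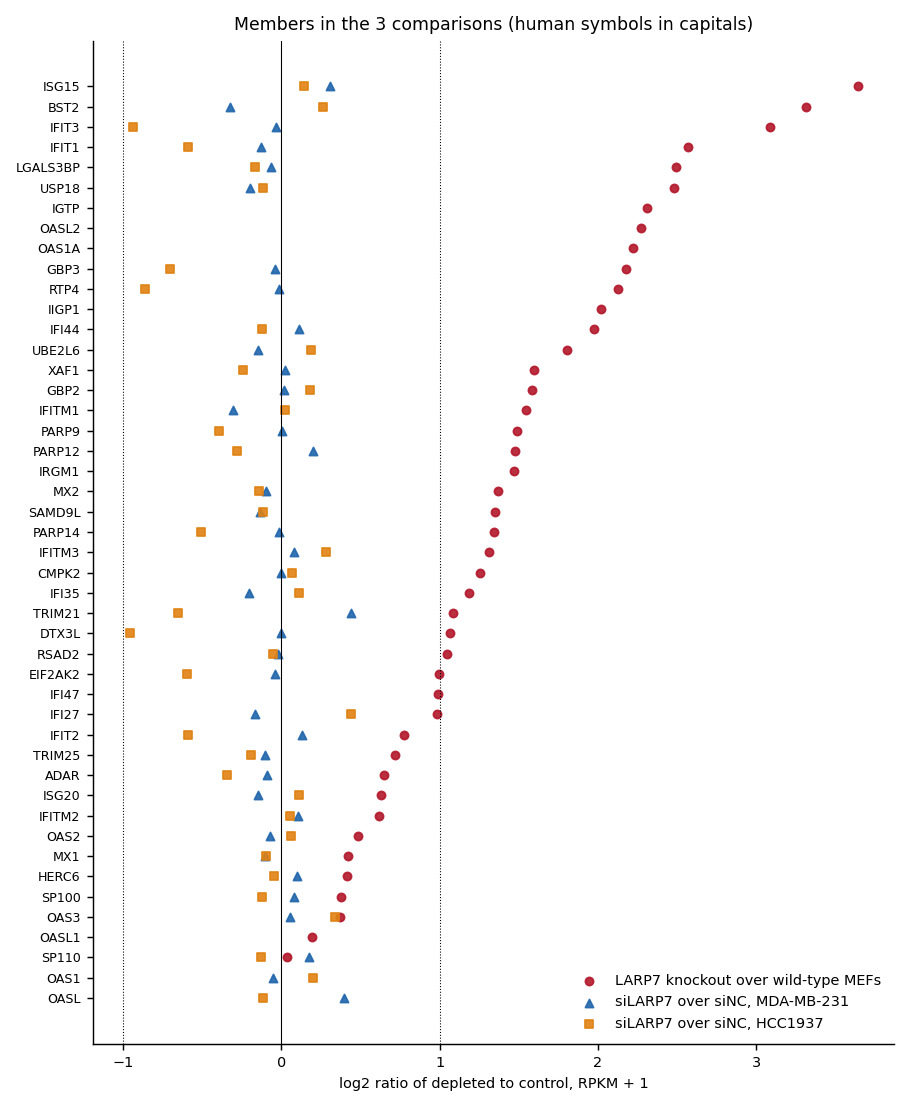
Log2 ratio of depleted to control on RPKM + 1 for each member found, ordered by its ratio in MEFs, with circles for MEFs, triangles for MDA-MB-231 and squares for HCC1937 and dotted lines at the 2-fold limits. The MEF circles reach 3.64, and the human symbols of the same genes stay between -0.96 and 0.44.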

How the data were processed

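Total RNA (RNeasy, with DNase) was made into libraries with an NEBNext Ultra kit, per the labels' protocols. The sources used here do not give poly(A) selection, strandedness or the genome build behind the MEF table. The submitters' processing notes name cutadapt, FastQC, STAR and the build GRCh37. RPKM values came from the authors, 1 for every gene in every library, per the file headers, and were used as they stood. A log2 change computed by the authors with GFOLD (setting 0.01, per the file headers) is quoted only as theirs. Columns were assigned to libraries from the table's cell type and the column's name. In the human tables, 47 pseudoautosomal rows repeated on the Y chromosome were left out.

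The log2 ratio of depleted to control was taken on RPKM + 1, over genes that reached 1 RPKM in either library, and called at 2-fold or more. Members and lists were chosen with earlier results of these data known. Of the listed pathway and marker genes, 2 are not reported here and were left out of the list counts. Every member found may be named, grouped in 9 roles, those called with both values, and of the 8 pathway lists the genes called and examples chosen after their values were seen are named. Depth was recovered from low RPKM values. In the human tables, 89.5% to 90.7% of single-exon genes under 50 reads came out whole within 0.01. In MEFs, without annotated lengths, 19.4% to 19.8% of short-gene values fell on whole lengths within 0.02, so that depth is less certain. Approximate human reads used exon lengths of GENCODE release 29. The trend removed in the human lines was a polynomial of degree 3 on GC content, length and level over protein-coding genes, which keeps the shift between libraries. Promoters came from RefSeq on GRCh38.p14 and were used for their letters only. Alternatives were a pseudocount of 0.1 or none, a minimum of 5 RPKM or none, 2 other scalings, leaving out members with near-identical copies, and a control level of at least 1 RPKM, the last chosen after seeing the data. Steps were tested on simulated data, with Python 3.11.15, NumPy 2.4.6, pandas 2.3.3 and SciPy 1.17.1.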

Additional observations from a re-analysis of the deposited data

Results flagged for a closer look

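Members called higher in LARP7-/- MEFs and lower by 0.5 or more on the log2 scale in siLARP7 HCC1937 were picked out, since their ratios in those single library pairs had opposite signs. They were 7 of the 20 members called higher in MEFs and compared in HCC1937. Of all genes compared in HCC1937, 16.1% were lower by as much, and the median of the whole pair was -0.14. DTX3L was at -0.96 in HCC1937 and 1.06 in MEFs. IFIT3 was at -0.93 in HCC1937 and 3.09 in MEFs, and RTP4 at -0.86 in HCC1937 and 2.13 in MEFs. GBP3 was at -0.70 in HCC1937 and 2.18 in MEFs, and TRIM21 at -0.65 in HCC1937 and 1.09 in MEFs. IFIT1 was at -0.59 in HCC1937 and 2.57 in MEFs, and PARP14 at -0.50 in HCC1937 and 1.34 in MEFs. After the fitted trend on level, transcript length and GC content was taken out, GBP3 (-0.45), IFIT1 (-0.35) and PARP14 (-0.25) no longer reached that limit in HCC1937. Of the 11962 genes in that fit, 9.58% were then lower by as much. With a median ratio of 1, IFIT1 (-0.48) and PARP14 (-0.40) did not reach it, and 9.9% of all genes compared did. The difference between the cell types was not tested, since each group is 1 library. In MDA-MB-231, 6 of these 7 genes lay within 0.13 of 0, RTP4 under 1 RPKM among them, and TRIM21 was at 0.44.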

How the results depend on the processing

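No paired analysis was possible because each group has 1 library, and no replicate could be left out. In MEFs the number of members called higher was 19 to 32 over the alternatives, and none was called lower. It was 19 of 27 with a wild-type level of 1 RPKM or more, where fewer genes enter. The median of members in MEFs was 1.88 with a pseudocount of 0.1, 1.93 with none, 1.35 with no level minimum and 1.34 without members that have near-identical copies. With a pseudocount of 0.1 or none, Eif2ak2, Ifi27 and Ifi47 were called as well, and Eif2ak2 also under both scalings. In HCC1937, 3 members were called lower with a pseudocount of 0.1 and 3 with none, namely IFIT3, RTP4 and DTX3L, where 5.72% and 6.82% of all genes were. Its median of members was 0.026 at a minimum of 5 RPKM, -0.0034 with a median ratio of 1 and 0.0046 with a trimmed mean scaling, which multiply ratios to lift the whole pair. No called member changed sign. In MDA-MB-231 no member was called under any alternative. At these depths a gene under 0.0563 to 0.0813 RPKM has fewer than 3 reads per kb, so Oas2, Oas3, Mx1, Sp100 and Sp110 in wild-type MEFs, Sp110 in LARP7-/- MEFs, OAS1 in siLARP7 MDA-MB-231 and RSAD2 and CMPK2 in both MDA-MB-231 libraries are not measured closely.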
